A study of Mus musculus with 6 samples.

Results

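The genes described here are 40 markers of liver macrophages: genes that mark Kupffer cells, the resident macrophages of the liver, genes shared by macrophages and other myeloid cells, and genes of monocytes and macrophages that enter the liver from blood. They were listed by name, all 40 were found among the 23412 gene symbols of the count table, and 38 of them had enough counts to be tested. RNA was sequenced from whole liver of C57BL/6J mice, an inbred strain, with an age of 8 weeks in the labels. The treated group, HFD_Lira3d, received liraglutide under the skin at 300 µg/kg for 3 days after 4 weeks on a high-fat diet, and it holds 3 libraries (Lira161, Lira162 and Lira164). The control group, HFD_PBS3d, was fed the same diet and given phosphate-buffered saline (PBS), and it holds 3 libraries (PBS155, PBS157 and PBS158). Liraglutide activates the GLP-1 receptor and lowers food intake, and no group with matched food intake or with normal chow is among the samples. Total counts lay between 20888991 and 25404192 in the liraglutide libraries and between 21901811 and 27007182 in the PBS libraries. The labels do not state that each library came from its own animal, so the p-values rest on a spread among libraries that may be technical.

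Kupffer cells sit in the sinusoids, where they take up bacteria, aged red cells and lipoproteins from portal blood. They depend on signalling through the receptor Csf1r, recognise opsonised particles through complement and Fc receptors, and keep an identity that differs from that of blood monocytes. In livers of obese animals, monocytes that carry Ccr2 can enter the tissue and become macrophages that express genes of lipid handling, among them Trem2, Gpnmb, Spp1 and Cd9.

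Of the 38 tested genes, Cd9, Ccl6 and Ccl5 rose and Spp1 fell after liraglutide at an adjusted p below 0.05. The other 34 did not pass. The 4 called genes are 10.5% of those tested, while 8.77% of all 12626 tested genes were called (4.08% higher and 4.69% lower), so the share called was near that of the whole table. The median log2 fold change of the 38 genes was 0.53, against 0.01 over all genes tested, and 32 of the 38 had a fitted value above 0, where 51.6% of all genes did. Many of the genes that mark Kupffer cells were spread widely among the PBS libraries. PBS155 was the highest of all 6 libraries for 14 of the 38 genes (36.8%, against 17.8% of all genes tested). PBS158 was the lowest for 30 (78.9%, against 21.5% of all genes tested). Without PBS155 the median was 1.02 over the 39 genes then tested. In that fit 8 genes (Slc11a1, Marco, Lyz2, Ccl6, Id3, C1qb, C1qc and Cd163) were called higher and Spp1 lower, while 3.82% of all genes were called higher and 3.74% lower. PBS155 was high for many of these genes, so leaving it out raises their fold changes and narrows the PBS spread by construction. This fit is singled out with those values known, and its calls are not separate support for a rise. The count called higher was 0 without Lira161 or without PBS158, 1 without Lira162, 3 without Lira164 and 2 without PBS157, while Spp1 alone was lower each time. The 2 without PBS157 were Cd9 and Gpnmb, and Gpnmb is not among the 38. The shares of all genes called higher in these fits were 1.62%, 1.40%, 1.27%, 5.42% and 2.23%, and the shares called lower were 2.00%, 1.82%, 1.82%, 6.27% and 2.89%, in the same order. DESeq2 called 5 genes higher and 2 lower (5.75% and 6.41% of all genes), and limma-voom called 4 higher and 1 lower (4.06% and 4.93%). These RNA levels come from whole liver, so fewer cells of a type and less RNA per cell cannot be told apart.

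**Figure D1:**
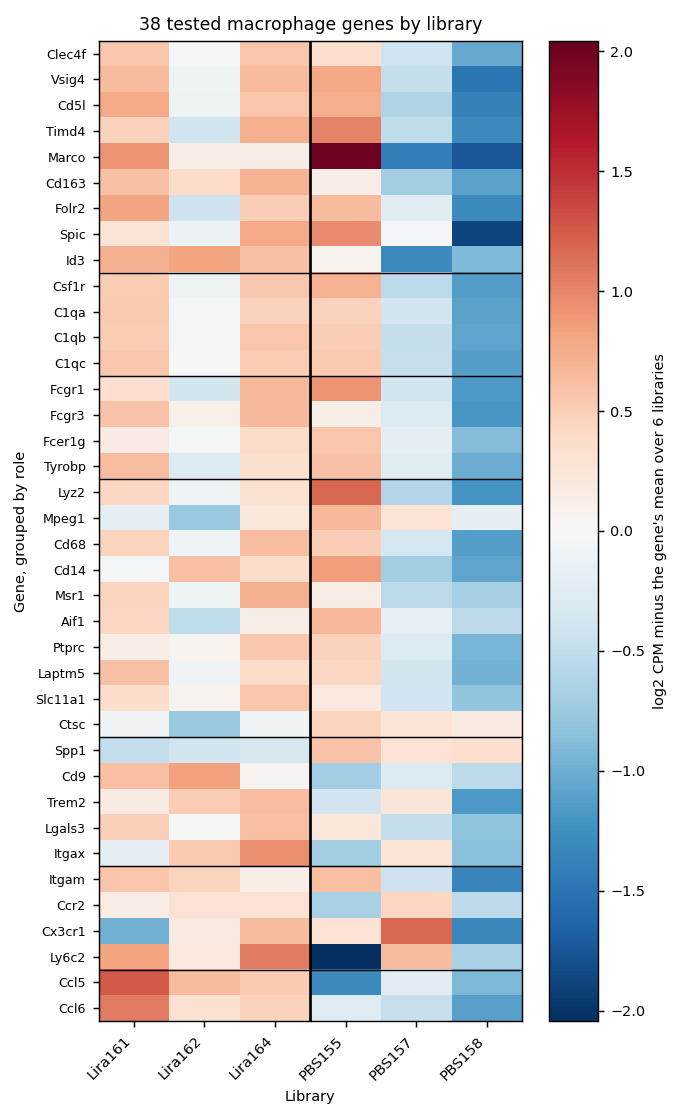
Level of the 38 tested macrophage genes (rows, grouped by role) in each library (columns, liraglutide left of the black line and PBS right of it), as log2 CPM minus the mean of the gene over the 6 libraries. PBS155 resembles the liraglutide libraries across most rows, PBS158 is the lowest library for 30 of the 38 genes, and Spp1 and Ctsc are higher in all 3 PBS libraries.

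Spp1 codes for osteopontin, a secreted protein that macrophages of the obese liver make and that bile duct cells also express. It had 19.2, 20.6 and 21.6 CPM (TMM-normalised read counts scaled to library size) in Lira161, Lira162 and Lira164, against 40.9, 33.5 and 34.4 CPM in PBS155, PBS157 and PBS158. The groups did not overlap, and the liraglutide libraries lay within 1.12-fold of each other. Spp1 fell by 0.82 ± 0.11 on the log2 scale (SE, n = 3 each), which is 1.77-fold lower after liraglutide (adjusted p = 0.00508, edgeR quasi-likelihood test). It was called whichever library was left out, at adjusted p up to 0.0243. A short exon overlap of 181 bp with the predicted gene Gm42793 on the same strand could move some reads between these genes. Markers of bile duct cells, given beside it because they share this gene, summed to 7.06 to 8.87 CPM in the liraglutide libraries and 10.2 to 12.2 CPM in the PBS libraries. The largest part of this sum was Sox9, at 4.38 ± 1.14 CPM after liraglutide and 6.40 ± 0.948 CPM after PBS (SD), so the sum leans on 1 gene. None of the 7 tested bile duct markers of 9 was called, all 7 had fitted values below 0 and none was at 0 in all libraries. Their part in the fall of Spp1 was not tested.

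Cd9, a tetraspanin of the cell membrane that many cell types carry, moved the other way. It had 18.6, 21.7 and 12.7 CPM in Lira161, Lira162 and Lira164, against 7.44, 10.1 and 8.40 CPM in PBS155, PBS157 and PBS158. All 3 liraglutide libraries were above all 3 PBS libraries, with Lira164 closest to them. Cd9 rose 2.05-fold (log2 fold change 1.03 ± 0.21, adjusted p = 0.0191). With any of Lira161, Lira162, PBS155 and PBS158 left out the call was lost (highest adjusted p = 0.0769). On the opposite strand, an exon of the predicted gene Gm26728 overlaps Cd9 by 218 bp, and no source used here states whether counting used strand.

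Both chemokines of the list rose. Ccl6 is a CC chemokine of rodents made by macrophages and other myeloid cells. Its levels were 14.8, 8.76 and 9.79 CPM in Lira161, Lira162 and Lira164, against 5.86, 5.10 and 3.26 CPM in PBS155, PBS157 and PBS158. The groups were separate, and Lira161 was the highest library. The rise was 2.32-fold (1.21 ± 0.26, adjusted p = 0.0262), and the call was lost without Lira161, PBS157 or PBS158 (adjusted p up to 0.0717). Ccl5 attracts T cells and monocytes and is made by T and natural killer cells as well as macrophages. It was scarce, at 1.30, 0.849 and 0.791 CPM in Lira161, Lira162 and Lira164, against 0.220, 0.471 and 0.288 CPM in PBS155, PBS157 and PBS158. These levels rest on 27, 22 and 19 counts in Lira161, Lira162 and Lira164, against 6, 11 and 6 counts in PBS155, PBS157 and PBS158. No PBS library reached the lowest liraglutide library. Ccl5 rose 2.98-fold (1.57 ± 0.41, adjusted p = 0.0472), and only the fit without Lira164, among the 6 with a library left out, kept the call (adjusted p up to 0.151). With limma-voom its adjusted p was 0.0511, and with DESeq2 it was 0.0486.

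Markers of T and natural killer cells are given beside Ccl5 because these cells make it. Their summed level was 7.58 to 8.76 CPM in the liraglutide libraries and 4.95 to 5.99 CPM in the PBS libraries. None of the 13 markers was at 0 in all libraries, and of the 5 with enough counts to be tested 1 rose, 1 fell and 3 did not pass. Of all genes tested, 8.77% were called. Il2rb, a receptor chain for interleukins of T and natural killer cells, rose 3.68-fold (1.88 ± 0.26, adjusted p = 0.0054), with 3.23, 3.09 and 2.62 CPM in Lira161, Lira162 and Lira164, against 0.879, 0.856 and 0.672 CPM in PBS155, PBS157 and PBS158. Cd4, a co-receptor of helper T cells, fell by 1.97 ± 0.35 (adjusted p = 0.0116), at 0.599 ± 0.246 CPM in the liraglutide libraries and 2.33 ± 0.455 CPM in the PBS libraries. The T cell markers Cd3d, Cd3e and Cd3g of the same list averaged 0.160, 0.106 and 0.378 CPM in the PBS libraries, below Cd4. Their means were higher after liraglutide, at 0.325, 0.452 and 0.574 CPM, opposite to Cd4. Only Cd3g of these had enough counts for the test, and it did not pass. The fall of Cd4 is thus not a measure of T cells here. Whether T and natural killer cells account for Ccl5 was not tested.

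**Figure D2:**
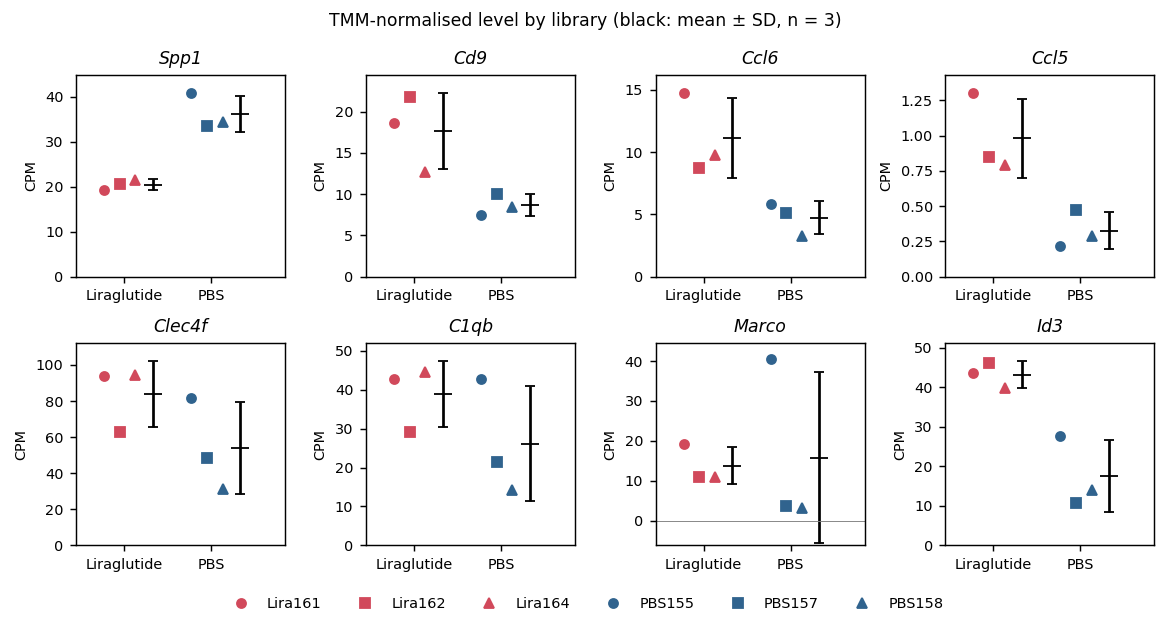
CPM of the 4 called genes (top row) and of 4 genes of Kupffer cells (bottom row) in each library, with liraglutide left of PBS on linear axes. Black marks are the mean and SD of 3 libraries. In the top row the groups do not overlap. In the bottom row PBS155 lies within or near the liraglutide range for Clec4f and C1qb and above it for Marco, and for Id3 it lies below all 3 liraglutide libraries.

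The sequences before the start sites of 6 of these genes are shown because they are the called genes with an entry in the promoter table (Spp1, Cd9 and Ccl6) and genes of Kupffer cells whose levels moved together across libraries (Clec4f and the neighbours C1qb and C1qc). Each is the 250 bases before the first start listed for the gene in RefSeq, build GRCm38.p6, written 5′ to 3′ on the strand of the gene. Capitals mark matches to GAGGAAGT, the letters searched for PU.1 (a transcription factor of myeloid cells), to TGCTGAC for factors of the MAF family, to TTGCNNAAT for C/EBP factors or to TATAAA for a TATA box, on either strand.
Spp1 (chr5:104434861-104435110, plus strand): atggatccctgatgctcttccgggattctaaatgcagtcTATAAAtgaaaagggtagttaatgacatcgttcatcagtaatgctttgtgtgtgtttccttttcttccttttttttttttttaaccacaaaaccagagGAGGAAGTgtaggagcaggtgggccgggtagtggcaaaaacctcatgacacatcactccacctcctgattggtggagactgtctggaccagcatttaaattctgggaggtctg
Cd9 (chr6:125494761-125495010, minus strand): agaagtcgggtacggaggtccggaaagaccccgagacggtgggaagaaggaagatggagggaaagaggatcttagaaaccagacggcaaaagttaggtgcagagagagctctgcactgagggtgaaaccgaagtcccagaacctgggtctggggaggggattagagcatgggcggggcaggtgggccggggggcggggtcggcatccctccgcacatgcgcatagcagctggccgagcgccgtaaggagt
Ccl6 (chr11:83593088-83593337, minus strand): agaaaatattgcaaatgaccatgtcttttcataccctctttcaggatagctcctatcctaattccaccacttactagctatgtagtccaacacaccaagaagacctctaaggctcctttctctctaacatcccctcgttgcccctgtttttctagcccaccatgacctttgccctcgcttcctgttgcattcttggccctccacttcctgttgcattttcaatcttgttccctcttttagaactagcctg
C1qb (chr4:136886201-136886450, minus strand): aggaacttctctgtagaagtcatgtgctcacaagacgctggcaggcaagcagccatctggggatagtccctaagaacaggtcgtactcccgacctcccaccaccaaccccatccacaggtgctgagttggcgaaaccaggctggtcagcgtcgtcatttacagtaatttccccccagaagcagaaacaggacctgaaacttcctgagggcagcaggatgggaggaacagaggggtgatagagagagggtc
C1qc (chr4:136892915-136893164, minus strand): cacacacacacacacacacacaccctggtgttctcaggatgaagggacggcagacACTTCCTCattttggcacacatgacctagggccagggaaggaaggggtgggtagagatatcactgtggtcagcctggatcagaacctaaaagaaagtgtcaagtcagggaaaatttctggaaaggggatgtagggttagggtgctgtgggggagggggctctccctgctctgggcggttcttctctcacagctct
Clec4f (chr6:83656117-83656366, minus strand): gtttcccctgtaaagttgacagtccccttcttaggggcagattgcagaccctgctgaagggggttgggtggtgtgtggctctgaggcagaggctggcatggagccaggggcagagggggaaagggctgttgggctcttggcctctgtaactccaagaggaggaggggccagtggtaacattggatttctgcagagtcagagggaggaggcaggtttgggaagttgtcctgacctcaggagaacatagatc

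Of the 40 genes, 34 had an entry in this table. Starts in RefSeq and in the GENCODE M21 annotation differ for some genes. By GENCODE bounds, the windows of Cd9, C1qc and Clec4f run partly into the gene. Those of some others, among them Fcgr3 and Ptprc, lie wholly inside it, so "before the start" holds for the RefSeq start only. GAGGAAGT was found before the start of 4 of the 34 (C1qc, Ctsc, Spp1 and Ly6c2), which is 11.8%, against 2.44% of 27025 genes with an entry. In Spp1 this match begins 113 bases before the start and the TATAAA match 211 bases before it. In C1qc the match lies on the opposite strand, 195 bases before the start. TGCTGAC was found before Timd4 and Fcgr3 (5.88%, against 3.72% of all), TATAAA before Ptprc, Laptm5 and Spp1 (8.82%, against 12.97%) and TTGCNNAAT before none (against 2.17%). No matches in the 34 windows overlapped each other. The genes with GAGGAAGT did not share a direction: Spp1 fell, Ctsc, C1qc and Ly6c2 did not pass, and their log2 fold changes were -0.57, 0.56 and 1.03.

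None of the 9 genes of Kupffer cell identity passed the test, where 8.77% of all genes did. Their median log2 fold change was 0.53. Clec4f, a lectin found on Kupffer cells in mice, had 93.8, 62.7 and 94.7 CPM in Lira161, Lira162 and Lira164, against 81.6, 48.5 and 31.3 CPM in PBS155, PBS157 and PBS158. PBS155 was above Lira162, so the groups overlapped (0.63 ± 0.37, adjusted p = 0.348). Cd5l, a secreted scavenger protein of macrophages also known as AIM, had 109, 59.1 and 93.3 CPM in Lira161, Lira162 and Lira164, against 106, 41.5 and 24.3 CPM in PBS155, PBS157 and PBS158. Its levels spanned 4.34-fold among the PBS libraries and 1.84-fold among the liraglutide libraries (0.60 ± 0.60, adjusted p = 0.587). Vsig4, a complement receptor of resident macrophages, had 27.3, 16.4 and 27.2 CPM in Lira161, Lira162 and Lira164, against 30.0, 12.4 and 6.19 CPM in PBS155, PBS157 and PBS158, with PBS155 the highest of all (0.53 ± 0.60, adjusted p = 0.637).

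Cd163 and Id3 were the genes of this group whose libraries did not overlap. Cd163, the scavenger receptor for haemoglobin bound to haptoglobin, had 20.7, 17.7 and 22.3 CPM in Lira161, Lira162 and Lira164, against 15.0, 8.35 and 6.38 CPM in PBS155, PBS157 and PBS158. Its log2 fold change was 1.02 ± 0.29 (adjusted p = 0.0793), and it passed with DESeq2 (adjusted p = 0.00206), with limma-voom (0.0390) and without PBS155 (0.00543). With any other library left out Cd163 did not pass (edgeR adjusted p from 0.134 to 0.213), nor with the other edgeR scalings and filters. Id3, an inhibitor of DNA binding that Kupffer cells need for their development and that endothelial cells express too, had 43.7, 46.3 and 39.7 CPM in Lira161, Lira162 and Lira164, against 27.8, 10.7 and 14.1 CPM in PBS155, PBS157 and PBS158. The liraglutide libraries lay close together and PBS155 was the highest of the PBS libraries (1.30 ± 0.35, adjusted p = 0.0770). Id3 also passed with DESeq2 (adjusted p = 6.74e-05), with limma-voom (0.0209) and without PBS155 (0.00385). With any other library left out Id3 did not pass (edgeR adjusted p from 0.0958 to 0.226), nor with the other edgeR scalings and filters. In all, 7 of the 38 tested genes had groups that did not overlap, 5 higher (Cd163, Id3, Cd9, Ccl5 and Ccl6) and 2 lower (Spp1 and Ctsc). Over all tested genes 31.3% had groups that did not overlap, with 14.9% higher and 16.4% lower.

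Marco, a scavenger receptor for bacteria and particles, set PBS155 apart most clearly. It had 19.2, 11.1 and 11.1 CPM in Lira161, Lira162 and Lira164, against 40.5, 3.81 and 3.07 CPM in PBS155, PBS157 and PBS158. PBS155 was 13.2-fold above PBS158, and the group means were 13.8 ± 4.71 CPM after liraglutide and 15.8 ± 21.4 CPM after PBS (SD). The fitted value was -0.21 ± 1.08 (adjusted p = 0.929) with all libraries and 1.98 (adjusted p = 0.0132) without PBS155. With any other library left out Marco did not pass (adjusted p from 0.757 to 0.987). Timd4, a receptor for phosphatidylserine on dying cells, had 6.51, 3.55 and 7.91 CPM in Lira161, Lira162 and Lira164, against 9.49, 3.30 and 1.92 CPM in PBS155, PBS157 and PBS158. Folr2, a folate receptor of resident macrophages, had 9.07, 3.90 and 7.41 CPM in Lira161, Lira162 and Lira164, against 8.13, 4.41 and 2.11 CPM in PBS155, PBS157 and PBS158, and 1 of its exons overlaps Gm10602 on the opposite strand by 474 bp. Spic, a transcription factor of macrophages that recycle iron, was low, at 22, 21 and 36 counts in Lira161, Lira162 and Lira164, against 47, 20 and 5 counts in PBS155, PBS157 and PBS158. For Timd4, Folr2 and Spic the groups overlapped, with adjusted p of 0.826, 0.631 and 0.845.

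The receptor Csf1r and the 3 chains of complement C1q, the recognition unit of the classical pathway that macrophages secrete, moved together from library to library. Csf1r had 43.7, 28.5 and 44.9 CPM in Lira161, Lira162 and Lira164, against 50.2, 21.2 and 14.0 CPM in PBS155, PBS157 and PBS158. C1qb had 42.8, 29.3 and 44.6 CPM in Lira161, Lira162 and Lira164, against 42.7, 21.3 and 14.3 CPM in PBS155, PBS157 and PBS158. For both, PBS155 lay among or above the liraglutide libraries, while PBS157 and PBS158 lay below all of them. C1qa had 39.3, 26.6 and 37.6 CPM in Lira161, Lira162 and Lira164, against 37.5, 20.9 and 12.6 CPM in PBS155, PBS157 and PBS158. C1qc averaged 33.6 ± 6.59 CPM after liraglutide and 22.7 ± 13.2 CPM after PBS, with the same order of libraries within PBS. None of the 4 passed (log2 fold changes 0.45 to 0.57, adjusted p from 0.466 to 0.641). C1qb and C1qc passed without PBS155, at adjusted p = 0.0458 and 0.0452 and log2 fold changes of 1.11 and 1.12. With any other library left out neither passed (adjusted p from 0.504 to 0.705 for C1qb and from 0.529 to 0.718 for C1qc). An exon of Hmgxb3 overlaps Csf1r by 873 bp on the opposite strand.

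The 3 C1q genes lie side by side on chromosome 4 (C1qb at 136880129 to 136886187, C1qc at 136889804 to 136893065 and C1qa at 136895917 to 136898803, GRCm38). The count of C1qa was 0.917, 0.908 and 0.843 times that of C1qb in Lira161, Lira162 and Lira164, against 0.878, 0.982 and 0.886 times in PBS155, PBS157 and PBS158, a span of 1.16-fold. The count of C1qc was 0.884, 0.889 and 0.828 times that of C1qb in Lira161, Lira162 and Lira164, against 0.876, 0.882 and 0.832 times in PBS155, PBS157 and PBS158, a span of 1.07-fold. Over the same libraries C1qb itself spanned 2.99-fold within PBS. The ratio of Csf1r to C1qb spanned 1.21-fold, with PBS155 the highest at 1.18. Ratios to Clec4f spanned 1.64-fold for Cd163, 1.66-fold for Cd5l, 1.86-fold for Vsig4 and 6.30-fold for Marco. The ratio of Marco to Clec4f, the widest of the 15 ratios computed, was 0.205, 0.177 and 0.117 in Lira161, Lira162 and Lira164, against 0.496, 0.0786 and 0.0982 in PBS155, PBS157 and PBS158.

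Fc receptors bind antibody, and the adaptors Fcer1g and Tyrobp carry their signals and those of Trem2 through motifs called ITAMs. None of the 4 genes passed, and their median log2 fold change was 0.28. Fcgr3, a low-affinity receptor for immunoglobulin G, had 7.43, 5.33 and 7.83 CPM in Lira161, Lira162 and Lira164, against 5.35, 4.07 and 2.16 CPM in PBS155, PBS157 and PBS158. Lira162 and PBS155 met, so the groups overlapped narrowly (0.81 ± 0.31, adjusted p = 0.137), and reads shared with the related gene Fcgr2b make the value uncertain. Tyrobp had 9.60, 5.13 and 7.83 CPM in Lira161, Lira162 and Lira164, against 9.45, 5.22 and 3.07 CPM in PBS155, PBS157 and PBS158 (adjusted p = 0.667). Fcer1g averaged 5.74 ± 0.845 CPM after liraglutide and 4.85 ± 2.39 CPM after PBS (0.23 ± 0.33, adjusted p = 0.703). Fcgr1, the high-affinity receptor, averaged 2.49 ± 0.859 CPM after liraglutide and 2.13 ± 1.56 CPM after PBS (0.20 ± 0.51, adjusted p = 0.841). In all 4, PBS155 was the highest and PBS158 the lowest of the PBS libraries.

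Among 11 genes of macrophages and myeloid cells in general, 10 were tested and none passed, with a median log2 fold change of 0.38. Lyz2, the lysozyme of myeloid cells, had 44.0, 30.6 and 40.8 CPM in Lira161, Lira162 and Lira164, against 74.5, 21.8 and 14.2 CPM in PBS155, PBS157 and PBS158. The value of PBS155 was 5.25 times that of PBS158, and Lyz2 was at 0.06 ± 0.66 (adjusted p = 0.972) with all libraries and 1.08 (adjusted p = 0.0365) without PBS155. With any other library left out Lyz2 did not pass (adjusted p from 0.799 to 0.997). Reads shared with its close copy Lyz1 make its level uncertain. Msr1, a scavenger receptor for modified lipoproteins, had 11.6, 7.84 and 14.0 CPM in Lira161, Lira162 and Lira164, against 9.23, 5.82 and 5.28 CPM in PBS155, PBS157 and PBS158 (0.71 ± 0.27, adjusted p = 0.149). Slc11a1, a metal transporter of phagosomes, had 6.61, 5.40 and 7.58 CPM in Lira161, Lira162 and Lira164, against 5.90, 3.90 and 2.93 CPM in PBS155, PBS157 and PBS158. It did not pass with all libraries (0.61 ± 0.26, adjusted p = 0.175) and passed without PBS155 (0.92, adjusted p = 0.0456). With any other library left out Slc11a1 did not pass (adjusted p from 0.222 to 0.386).

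Ctsc and Mpeg1 departed from the rest of this group. Ctsc, the protease cathepsin C, had 61.1, 38.3 and 61.6 CPM in Lira161, Lira162 and Lira164, against 88.3, 77.3 and 73.4 CPM in PBS155, PBS157 and PBS158. Every liraglutide library was below every PBS library, and PBS155 stood only 1.20-fold above PBS158. The log2 fold change was -0.57 ± 0.18 (adjusted p = 0.0922), and DESeq2, unlike edgeR, called it lower (adjusted p = 0.0240). Mpeg1, the pore-forming protein perforin-2 of phagocytes, had 49.9, 33.6 and 67.5 CPM in Lira161, Lira162 and Lira164, against 91.8, 69.7 and 49.8 CPM in PBS155, PBS157 and PBS158. Groups overlapped (-0.49 ± 0.31, adjusted p = 0.390). Relative to Clec4f in the same library, the counts of Mpeg1 were 0.532, 0.536 and 0.713 in Lira161, Lira162 and Lira164, against 1.12, 1.44 and 1.59 in PBS155, PBS157 and PBS158, so this ratio did separate the groups. The ratio of Ctsc to Clec4f did as well, at 0.611 to 0.652 after liraglutide and 1.08 to 2.35 after PBS. Clec4f itself had a fitted value above 0 (0.63 ± 0.37), which lowers both ratios after liraglutide by arithmetic. Among the other ratios computed, those of Spp1 and Cd163 to Clec4f also separated the groups and the rest did not. No ratio was tested, and 31.3% of all single genes tested had groups that did not overlap.

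The remaining general genes followed PBS155. Cd68, a lysosomal glycoprotein of macrophages, averaged 6.88 ± 1.64 CPM after liraglutide and 4.73 ± 2.62 CPM after PBS (adjusted p = 0.448). Laptm5, a lysosomal protein of blood cells, averaged 13.8 ± 3.15 CPM after liraglutide and 9.56 ± 4.61 CPM after PBS (adjusted p = 0.419). Ptprc, the pan-leukocyte antigen CD45, averaged 10.3 ± 2.00 CPM after liraglutide and 7.80 ± 3.80 CPM after PBS (adjusted p = 0.520). PBS155 was the highest PBS library for each of them, and their groups overlapped. Cd14, the co-receptor for bacterial lipopolysaccharide, averaged 2.58 ± 0.577 CPM after liraglutide and 1.96 ± 1.49 CPM after PBS (adjusted p = 0.665). Aif1, which codes for the calcium-binding protein IBA1, averaged 2.77 ± 0.863 CPM after liraglutide and 2.81 ± 1.28 CPM after PBS (adjusted p = 0.955). Ms4a7 had too few counts for a test, with 2, 8 and 8 in Lira161, Lira162 and Lira164, against 25, 10 and 1 in PBS155, PBS157 and PBS158.

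None of the other tested genes of lipid-associated macrophages passed. Trem2, a lipid receptor whose signal runs through Tyrobp, had 10, 16 and 16 counts in Lira161, Lira162 and Lira164, against 9, 12 and 4 counts in PBS155, PBS157 and PBS158 (0.76 ± 0.43, adjusted p = 0.306). Gpnmb, a glycoprotein of lysosomes in lipid-loaded macrophages, had 6, 18 and 14 counts in Lira161, Lira162 and Lira164, against 1, 6 and 1 counts in PBS155, PBS157 and PBS158. It was removed by the filter on low counts. Without PBS157 it entered the test and was called higher (adjusted p = 0.0418), on 1 count in each of the PBS libraries left. Itgax, the integrin CD11c, had 14, 29 and 36 counts in Lira161, Lira162 and Lira164, against 13, 22 and 9 counts in PBS155, PBS157 and PBS158 (0.84 ± 0.43, adjusted p = 0.256). Lgals3, galectin-3, averaged 4.57 ± 0.945 CPM after liraglutide and 2.83 ± 1.07 CPM after PBS (0.68 ± 0.29, adjusted p = 0.180). Groups overlapped for Trem2, Itgax and Lgals3.

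None of the 4 genes of recruited monocytes passed. Ccr2, the receptor for Ccl2 that brings monocytes out of the marrow, had 1.54, 1.70 and 1.71 CPM in Lira161, Lira162 and Lira164, against 0.879, 1.88 and 0.960 CPM in PBS155, PBS157 and PBS158 (0.41 ± 0.34, adjusted p = 0.478). Unlike the Kupffer cell genes, Ccr2 was highest within PBS in PBS157. Cx3cr1, the receptor for fractalkine, had 5, 14 and 18 counts in Lira161, Lira162 and Lira164, against 16, 25 and 4 counts in PBS155, PBS157 and PBS158 (-0.27 ± 0.59, adjusted p = 0.811). Ly6c2, a surface antigen of inflammatory monocytes, had 0.530, 0.347 and 0.625 CPM in Lira161, Lira162 and Lira164, against 0.0733, 0.471 and 0.192 CPM in PBS155, PBS157 and PBS158 (1.03 ± 0.60, adjusted p = 0.314), and reads shared with Ly6c1 make it uncertain. Itgam, the integrin CD11b, averaged 1.29 ± 0.189 CPM after liraglutide and 0.871 ± 0.573 CPM after PBS (adjusted p = 0.488), and an exon of Gm49368 overlaps it by 210 bp. The 4 monocyte genes summed to 3.76 to 4.17 CPM in the liraglutide libraries and 1.73 to 4.15 CPM in the PBS libraries, while the 9 Kupffer cell genes summed to 222 to 330.2 CPM in the liraglutide libraries and 89.6 to 320 CPM in the PBS libraries.

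Levels of different genes can be set side by side per length of exon sequence. Over the 6 libraries Cd5l was the highest of the 40 at 35.4 CPM per kb, followed by C1qb at 29.9, Lyz2 at 28.6, C1qa at 28.0 and Clec4f at 27.8. These 5 neighbours lie closer to each other than the spread of any of them across libraries. Spp1 was at 17.2, Id3 at 17.0, C1qc at 14.6, Mpeg1 at 13.9 and Vsig4 at 13.4 CPM per kb. At the low end, Cx3cr1 was at 0.125, Trem2 at 0.0944, Ms4a7 at 0.0798 and Gpnmb at 0.0488 CPM per kb. Exon lengths are unions over all transcripts in GENCODE M21, which lowers the value of genes with long unused exons.

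**Figure D3:**
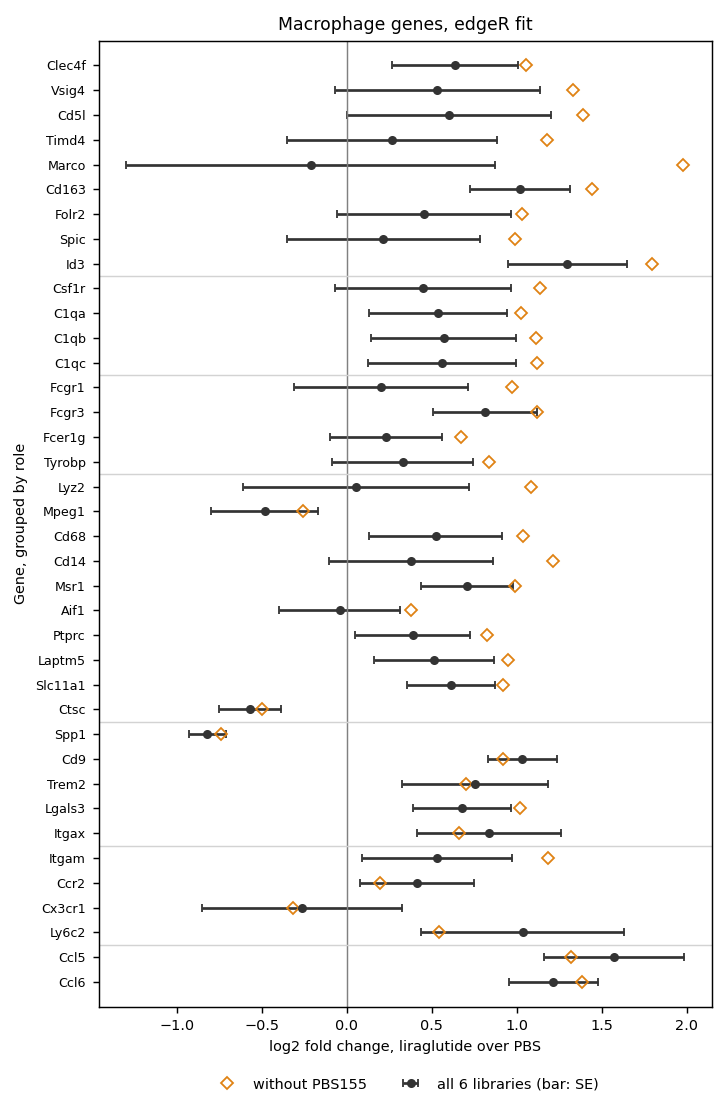
Log2 fold change of liraglutide over PBS for the 38 tested genes, grouped by role. Black points are the fit with all 6 libraries, with bars for the SE, and open diamonds are the fit without PBS155. Diamonds lie well to the right of the points for Marco (1.98, against -0.21), Lyz2 (1.08, against 0.06) and the other Kupffer cell genes, and within the bar for Spp1 and Cd9.

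The spread among the PBS libraries was wide for these genes. PBS155 was the highest PBS library for 31 of the 38 genes (81.6%), against 36.6% of all genes tested. PBS158 was the lowest PBS library for 32 (84.2%), against 34.5% of all genes tested. Both held for all 4 Csf1r and C1q genes, all 4 Fc receptor genes and all 10 tested general genes, but for 1 of 4 monocyte genes PBS155 was the highest. The ratio of the highest to the lowest PBS library had a median of 2.71 over the 38 genes and 1.24 over all genes tested. Among the liraglutide libraries the same medians were 1.61 and 1.24, and Lira162 was the lowest for 28 of the 38 genes, against 32.0% of all genes. The liraglutide libraries were all above both PBS157 and PBS158 for 25 of the 38 genes (65.8%), against 23.1% of all genes tested, a split of the PBS libraries that was made after the values were seen. Il1b, a cytokine of activated macrophages, was also high in PBS155: it had 0.723, 0.425 and 1.75 CPM in Lira161, Lira162 and Lira164, against 6.08, 0.514 and 0.144 CPM in PBS155, PBS157 and PBS158 (adjusted p = 0.603).

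Markers of other liver cells were read in the same libraries. For each list the log2 CPM of its tested genes was averaged per library, and the mean of the 3 PBS libraries was subtracted. For Kupffer cell identity this level was 1.03, 0.42 and 0.97 in Lira161, Lira162 and Lira164, against 1.13, -0.23 and -0.90 in PBS155, PBS157 and PBS158. Markers of sinusoidal endothelium, the vessel lining on which Kupffer cells rest, were at 0.43, 0.82 and 1.12 in Lira161, Lira162 and Lira164, against 0.54, -0.20 and -0.33 in PBS155, PBS157 and PBS158. PBS155 was thus the highest PBS library for both lists, but Lira162 was the lowest liraglutide library for Kupffer cell genes and not for endothelial genes. The 11 endothelial markers, all tested and none at 0 in all libraries, summed to 289 to 442 CPM in the liraglutide libraries and 168 to 298 CPM in the PBS libraries. Of these, Clec4g and Stab1 rose (0.78 ± 0.17 and 0.59 ± 0.13, adjusted p = 0.0250 and 0.0290), where 4.08% of all genes were called higher. Clec4g lost its call without Lira161, Lira162, PBS157 or PBS158 and Stab1 without Lira162, Lira164, PBS157 or PBS158. Without PBS155, 9 of the 11 were called higher, where 3.82% of all genes were. PBS155 was the highest PBS library for this list, so leaving it out raises these fold changes by construction. Those 9 calls are not separate support for a rise. Stellate cell and fibroblast markers summed to 473 to 521 CPM in the liraglutide libraries and 279.8 to 441 CPM in the PBS libraries, and none of 11 passed. Hepatocyte markers such as Alb summed to 81612 to 100647 CPM in the liraglutide libraries and 92868 to 113150 CPM in the PBS libraries. Of these, 1 of 10, Hnf4a, rose (0.53 ± 0.13, adjusted p = 0.0338), where 4.08% of all genes were called higher. Hnf4a was called with Lira164 or PBS158 left out and lost its call with any other library left out. The part of cell proportions in the macrophage values was not tested.

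**Figure D4:**
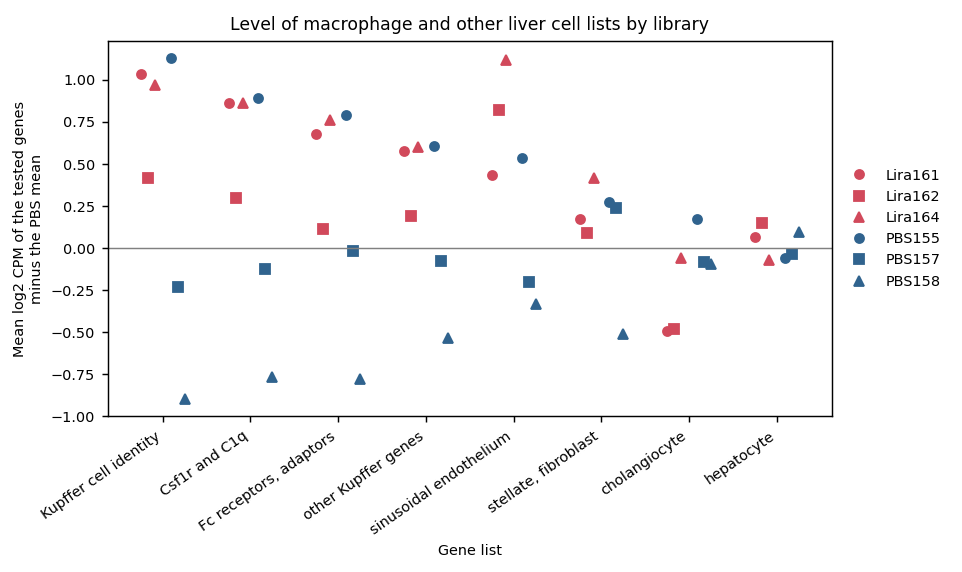
Mean log2 CPM of the tested genes of each list minus the mean of the 3 PBS libraries, by library, with liraglutide (red) left of PBS (blue). For the 4 macrophage lists on the left, PBS155 sits with Lira161 and Lira164, and PBS158 is the lowest. Hepatocyte markers reach at most 0.15 above the PBS mean (Lira162).

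Other genes of macrophages, none of them among the 40, were read from lists of the same pathways. None of 12 further Kupffer cell genes was called, with a median log2 fold change of 0.43. Without PBS155, 4 of them were called higher, where 3.82% of all genes were. The mean level of this list was also highest within PBS in PBS155 (0.61, against -0.07 in PBS157 and -0.53 in PBS158). Leaving PBS155 out thus raises the fold changes by construction, and these calls are not separate support for a rise. Adgre1, which codes for the macrophage antigen F4/80, had 12.2, 8.53 and 16.6 CPM in Lira161, Lira162 and Lira164, against 25.6, 6.17 and 3.26 CPM in PBS155, PBS157 and PBS158. Fcna, a lectin of the complement system, had 51.7, 44.1 and 41.0 CPM in Lira161, Lira162 and Lira164, against 36.6, 20.7 and 21.4 CPM in PBS155, PBS157 and PBS158 (0.79 ± 0.23, adjusted p = 0.0749). Fitted values were above 0 for 10 of the 12 and below 0 for Slc40a1 (-0.48 ± 0.14, adjusted p = 0.0717) and C6 (-0.51 ± 0.21, adjusted p = 0.172). The highest PBS library was PBS158 for Slc40a1 and PBS157 for C6. Of 10 tested transcription factors of macrophages, 1 was called (10%, against 8.77% of all genes). This was Irf5, which fell by 0.88 ± 0.18 (adjusted p = 0.0211), a call lost without PBS157 or PBS158. Spi1, the gene of PU.1, averaged 4.90 ± 1.08 CPM after liraglutide and 3.44 ± 2.01 CPM after PBS (adjusted p = 0.495). None of 13 genes of ITAM and Fc receptor signalling passed (median 0.27), and neither did any of 8 tested monocyte genes (median 0.13).

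Of 10 tested ligands and receptors of the Kupffer cell niche, 3 rose and none fell, where 4.08% of all genes were called higher and 4.69% lower. Vcam1, an adhesion molecule that holds leukocytes on endothelium, averaged 20.2 ± 1.58 CPM after liraglutide and 8.93 ± 1.46 CPM after PBS. It rose 2.26-fold (1.17 ± 0.14, adjusted p = 0.00397) and was called whichever library was left out. Gdf2, which codes for BMP9, a ligand made by stellate cells, rose 1.77-fold (0.82 ± 0.17, adjusted p = 0.0231), at 28.4 ± 0.965 CPM after liraglutide and 16.0 ± 4.07 CPM after PBS. Csf2rb, the shared receptor chain for GM-CSF and related cytokines, rose 1.86-fold (0.90 ± 0.22, adjusted p = 0.0404). Gdf2 lost its call without Lira161 or Lira162, and Csf2rb without Lira161, Lira162, PBS157 or PBS158. Csf1 itself, the ligand of Csf1r, averaged 7.66 ± 1.80 CPM after liraglutide and 10.5 ± 1.65 CPM after PBS (-0.46 ± 0.20, adjusted p = 0.178).

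Of 14 tested Toll-like receptor, inflammasome and cytokine genes 7.14% were called, against 8.77% of all genes tested. The 1 called was Il18, a cytokine released by the inflammasome. It fell by 0.78 ± 0.18 (adjusted p = 0.0276), with 4.63, 3.36 and 4.62 CPM in Lira161, Lira162 and Lira164, against 7.18, 7.41 and 6.96 CPM in PBS155, PBS157 and PBS158, and lost its call without Lira161, Lira162, PBS157 or PBS158. Of 6 tested further chemokine and receptor genes, only Ccl9 was called (16.7%, against 8.77% of all genes). It fell by 0.85 ± 0.14 (adjusted p = 0.0090) and was called whichever library was left out. Ccl9 is a relative of Ccl6 in the same gene cluster, and it had 22.2, 19.3 and 21.5 CPM in Lira161, Lira162 and Lira164, against 30.1, 42.9 and 40.8 CPM in PBS155, PBS157 and PBS158. Its groups did not overlap, in the direction opposite to that of Ccl6. In the further list of lipid-associated genes, 2 of 14 rose and none fell (14.3% called, against 8.77% of all genes). With so few calls, these lists are not set apart from the whole table. Fabp4, a fatty acid carrier of fat cells, macrophages and endothelium, rose 2.72-fold (1.44 ± 0.34, adjusted p = 0.0438), and Lipa, the lysosomal acid lipase, rose 1.40-fold (0.48 ± 0.13, adjusted p = 0.0499). Both lost their calls without any library other than Lira164.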

How the data were processed

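Total RNA of whole liver was sequenced, per the labels' protocols. The authors deposited raw read counts per gene symbol, which are whole numbers and not normalised, for 6 libraries. STAR and mm10 were used, per the submitters' processing notes. No source used here gives the counting tool, its annotation, its strand setting or any version. Column names carry the group and a number that matches no triplicate number, so columns were assigned to groups only. The table holds 0 mitochondrially encoded genes.

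Counts were filtered with filterByExpr, scaled by TMM and fitted with group as the only term in edgeR 4.0.16 (R 4.3.3, glmQLFit with robust estimation, glmQLFTest). Two-sided p-values were adjusted (Benjamini-Hochberg) over the 12626 tested genes, with calls at 0.05. The SE is the log2 fold change divided by the square root of F. Log2 CPM of lists used a prior count of 2. The procedure was tested on simulated data.

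The 40 genes, their roles and the other lists were chosen with earlier results of these data known. Older symbols matched 6 of the 248 list genes, and 3 had no match. Every gene of the 40 is named. The called ones, and those with the smallest p or highest level in each role, are given in full. Of other lists, up to 3 called genes are named. Adgre1, Fcna, Slc40a1, C6, Spi1, Csf1, Il1b, Sox9, Cd3d, Cd3e and Cd3g were named after their values were seen. Positions and exon lengths come from GENCODE M21 (GRCm38, the assembly of mm10). Alternatives tried were library totals, upper quartile factors, size factors from DESeq2, no filter beyond 1 count, a mean of at least 5 CPM, DESeq2 1.42.0 (Wald test), limma-voom (limma 3.58.1), leaving out each library, and leaving out the 10 most abundant genes. RefSeq promoters (GRCm38.p6) matched 34 of the 40 genes. Figures were drawn with matplotlib 3.10.9.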

Additional observations from a re-analysis of the deposited data

How the results depend on the processing

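The count of 3 higher and 1 lower genes was the same with DESeq2 size factors, upper quartile factors, library totals, no filter beyond 1 count and without the 10 most abundant genes. It was 2 higher and 1 lower with a mean of at least 5 CPM, which removed Ccl5, 4 higher and 1 lower with limma-voom, and 5 higher and 2 lower with the Wald test of DESeq2, in which Cd163, Id3 and Ctsc passed as well. With each library left out, between 0 and 8 genes were higher and 1 lower, and the median log2 fold change lay between 0.23 and 1.02, with 0 higher without Lira161 or PBS158, 1 without Lira162 and 8 without PBS155. The sign was the same in every alternative for 30 of the 38 genes. It turned for 8 genes, none of them called with all libraries. With a library left out, the values lay between -0.11 and 1.18 for Timd4, -0.69 and 1.98 for Marco, -0.21 and 0.99 for Spic, -0.15 and 0.97 for Fcgr1, -0.048 and 0.67 for Fcer1g, -0.33 and 1.08 for Lyz2, -0.27 and 0.38 for Aif1, and -0.66 and 0.35 for Cx3cr1. Marco was at 0.61 with limma-voom. The cause was not tested. No paired analysis was possible because the columns carry no triplicate numbers. Gpnmb and Ms4a7 had too few counts to be tested with all libraries.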

Other observations

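Of 12 neutrophil markers 1 was tested and not called, and their sum was 2.51 to 3.47 CPM in the liraglutide libraries and 1.82 to 4.43 CPM in the PBS libraries. None of 5 tested B and plasma cell markers and none of 4 tested dendritic cell markers was called. Alas2, the first enzyme of haem synthesis in red cell precursors, fell by 1.48 ± 0.28 (edgeR adjusted p = 0.0263), at 30.2 ± 11.3 CPM in the liraglutide libraries and 84.1 ± 6.89 CPM in the PBS libraries. It lost its call without Lira164, PBS155, PBS157 or PBS158. None of 4 tested mesothelial markers was called.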
